A study of Petunia x hybrida with 32 samples.

Results

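The transcripts described here are 51 petunia leaf transcripts annotated as transcription factors, out of 4767 transcripts in the expression table. A transcript was taken when its annotation carried the GO term for sequence-specific DNA-binding transcription factor activity or when its description contained the words transcription factor. Of 69 such transcripts, 17 were left out because they belong to named components described with other gene groups, and 1 because it was annotated to the cell cycle or DNA metabolism. Of the 51, 18 met both criteria, 16 had the GO term only and 17 had the description only. They come from 36 components of the de novo assembly, a component being a set of transcripts that Trinity assembled as forms of 1 locus, and 9 components hold 24 of the 51 transcripts.

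All plants were Petunia hybrida cv. Mitchell Diploid grown in hydroponic culture in a growth chamber. Control leaves were sampled at 0 h (CTR_00h), 6 h (CTR_06h) and 24 h (CTR_24h) without added salt, and salt-treated leaves at 6 h (STR_06h) and 24 h (STR_24h) of 150 mM NaCl in the nutrient solution. The 5 groups had 3 biological replicates each. A replicate pooled leaf material of 3 plants and was sequenced as 1 or more libraries, with index primers that were or were not HPLC-purified. Pools were set up within each treatment and the plants were sampled at each time, so the times of a treatment share plants while control and salt-treated pools were different plants. All plants were thus 1 genotype, and all cell types of the pooled leaves share a value.

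Transcription factors bind short DNA motifs and raise or lower transcription of the genes beside them. In leaves, bZIP and bHLH factors act in abscisic acid, jasmonate and light signalling, AP2/ERF factors in ethylene and dehydration responses, WRKY factors in defence, heat stress transcription factors (HSF) at heat shock elements, and the trimeric NF-Y complex at CCAAT boxes. MADS-box, MYB, homeobox and NAC factors regulate organ identity, pigmentation, growth and senescence. Many of these genes follow the time of day, so a salt group has to be read against control leaves of the same hour.

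By description, the 51 transcripts were 8 AP2/ERF, 6 WRKY, 6 MYB or MYB-related, 5 jumonji, 4 homeobox, 4 NF-Y, 4 bHLH, 3 MADS-box, 2 bZIP, 2 HSF, 1 B3, 1 LIM and 1 NAC, with 4 that could not be placed in a family. The 5 jumonji transcripts come from 1 component and the 3 MADS-box transcripts from another, so they are not independent measurements. The 4 unplaced transcripts include comp15072_c0_seq1, which carries the GO term but is described as 50S ribosomal protein L21, so the annotation does not decide what it encodes. Another, comp24875_c0_seq2, has no description but shares its component with the ERF13-like comp24875_c0_seq1.

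Levels are RPKM, read numbers scaled for transcript length and library size, averaged over the libraries of a replicate. The median of the 51 transcript means over 15 replicates was 5.23 RPKM, against 4.48 RPKM for all 4767 transcripts. All 51 passed the filter of at least 1 RPKM in at least 3 replicates. In 24 of them the mean was under 5 RPKM and in 11 it was at least 25 RPKM, and the highest means were those of an At1g50680-like factor (comp21571_c0_seq1) at 182 RPKM, a homeobox knotted-1-like 3-like factor (comp16115_c0_seq1) at 171 RPKM and an NF-Y subunit B-3-like factor (comp16091_c0_seq1) at 119 RPKM. The highest group mean was found in STR_06h for 14 transcripts (27.5%, against 16.1% of the transcripts tested), in STR_24h for 12 (23.5% against 21.4%), in CTR_00h for 9 (17.6% against 23.6%), and in CTR_06h and CTR_24h for 8 each (15.7%, against 24.2% and 14.7%). The 14 include all 5 jumonji transcripts and all 3 MADS-box transcripts, of 1 component each, and several forms of the MYB component comp22997_c0. These forms were high in both groups sampled at 6 h. The 14 are thus not independent, and their share is not an excess of separate factors.

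Differences below are salt minus control, or later minus earlier, on the log2(RPKM + 1) scale with limma's moderated standard error (SE), and a transcript was called at a Benjamini-Hochberg adjusted p of at most 0.05 over 4658 transcripts. This scale understates the change of low transcripts. Read counts behind the RPKM values are unknown, so no counting error can be given, and the precision rests on 3 replicates per group. The replicates' median log2(RPKM + 1) over the transcripts tested was 2.08 to 2.22 in CTR_24h and 2.17 to 2.44 in the other groups. In whole leaves, fewer cells of a type and less RNA per cell cannot be told apart. Leaf identity was checked by 5 transcripts of photosynthesis. Of these, a chlorophyll a-b binding protein had a mean of 2768 RPKM and the others had means of 0.541 to 38.6 RPKM. The check, and the sums of these 5 given below, thus rest in the main on 1 transcript. Lists for epidermis and phloem matched no transcript in the table.

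At 6 h of salt, 12 of 51 transcription factor transcripts (23.5%) were called against the 6 h controls, while the share was 34.5% among all transcripts tested. Of these, 8 were higher and 4 were lower, while among all transcripts tested 17.3% were higher and 17.2% lower. The replicates did not overlap between the groups for 18 of 51 (48.7% of all tested), and the median difference was 0.22 for the 51 and -0.07 for all tested. Higher were an HSF of class B, a bHLH122-like factor, both NF-YA9-like transcripts, a homeobox factor, an AP2/ERF and B3 factor, a bZIP factor and 1 jumonji transcript. Lower were a DIVARICATA-like MYB, AP2/ERF transcripts and the undescribed partner of the ERF13-like transcript.

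The heat stress transcription factor B-2a-like transcript (comp11409_c0_seq1) belongs to a class of HSFs that lack the activator motif of class A and are known in Arabidopsis mainly as repressors. It measured 13.5, 9.71 and 8.15 RPKM in the replicates of CTR_06h and 25.1, 33.7 and 29.5 RPKM in those of STR_06h. Every salt-treated replicate lay above every control replicate, and the mean was 2.82-fold higher (log2 difference 1.43 ± 0.23 SE, n = 3 per group, limma adjusted p = 0.000546). It was the only 1 of the 51 past a stricter rule of adjusted p of at most 0.001 and a log2 difference of 1, which 4.98% of all transcripts tested passed.

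A bHLH122-like transcript (comp24399_c1_seq3), whose Arabidopsis counterpart is known from drought and osmotic stress responses, measured 6.15, 4.56 and 9.23 RPKM in CTR_06h and 15.02, 16.6 and 19.6 RPKM in STR_06h. Its mean was 2.57-fold higher with salt (log2 difference 1.28 ± 0.25, adjusted p = 0.00182). The groups did not overlap. The subunit A-9-like transcript of NF-Y (comp23870_c0_seq1), which in the complex contacts the CCAAT box, measured 9.95, 7.86 and 10.1 RPKM in CTR_06h and 21.2, 24.8 and 25.7 RPKM in STR_06h (log2 difference 1.28 ± 0.34, adjusted p = 0.0108). Its other form, comp23870_c0_seq2, rose as well (log2 difference 1.41 ± 0.39, adjusted p = 0.012), and all salt-treated replicates of both lay above all controls. The call of comp23870_c0_seq2 was lost without replicate 2 of CTR_06h (adjusted p = 0.0547).

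Among the abundant factors, the knotted-1-like 3-like homeobox transcript (comp16115_c0_seq1), of a class of KNOX genes expressed in differentiated organs, went from 133, 103 and 128 RPKM in CTR_06h to 216, 234.3 and 231 RPKM in STR_06h. The log2 difference was 0.91 ± 0.23 (adjusted p = 0.00827). The At1g50680-like transcript (comp21571_c0_seq1) encodes a factor of the RAV type, with an AP2/ERF and a B3 DNA-binding domain. It measured 85.0, 66.7 and 67.8 RPKM in CTR_06h and 133, 139 and 130 RPKM in STR_06h, a 1.83-fold higher mean (log2 difference 0.87 ± 0.21, adjusted p = 0.00544). Neither transcript overlapped between the groups.

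Weaker calls were those of the G-box-binding factor 4-like bZIP transcript and of 1 jumonji transcript. The G-box-binding factor 4-like transcript (comp24615_c0_seq2) measured 4.66, 2.45 and 3.22 RPKM in CTR_06h and 4.90, 10.7 and 5.91 RPKM in STR_06h (log2 difference 0.85 ± 0.31, adjusted p = 0.0443). Replicate 2 of STR_06h stood above the others, and without it the difference was 0.55 (adjusted p = 0.19). The call was also lost without replicate 3 of STR_06h (0.94, adjusted p = 0.0652), replicate 2 of CTR_06h (0.68, adjusted p = 0.162) or replicate 3 of CTR_06h (0.82, adjusted p = 0.0965). The jumonji transcript comp26257_c1_seq2 overlapped between the groups, with 1.75 to 6.95 RPKM in CTR_06h and 6.63 to 6.85 RPKM in STR_06h (log2 difference 0.85 ± 0.31, adjusted p = 0.0461). Its call was lost in 5 of 6 fits with a replicate left out, all but that without replicate 3 of CTR_06h (differences of 0.53 to 1.3 over the 6, adjusted p of up to 0.216), and with HPLC libraries alone (0.5, adjusted p = 0.385).

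The largest decrease at 6 h was that of a DIVARICATA-like transcript (comp15654_c1_seq1), a MYB-related factor known from dorsoventral flower asymmetry in Antirrhinum. It measured 2.91, 4.78 and 7.37 RPKM in CTR_06h and 0.665, 1.44 and 0.385 RPKM in STR_06h (log2 difference -1.69 ± 0.31, adjusted p = 0.00114). An AP2/ERF domain transcript (comp9099_c0_seq1) measured 7.11, 3.28 and 6.90 RPKM against 1.32, 1.34 and 1.86 RPKM with salt (log2 difference -1.38 ± 0.31, adjusted p = 0.00382). In both, every salt-treated replicate lay below every control replicate.

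The undescribed comp24875_c0_seq2 measured 26.7, 19.8 and 29.6 RPKM in CTR_06h and 11.1, 13.8 and 9.83 RPKM in STR_06h (log2 difference -1.06 ± 0.32, adjusted p = 0.0194). Another AP2 domain transcript, comp19168_c0_seq1, fell from 4.84, 7.39 and 4.27 RPKM to 2.81, 1.59 and 3.15 RPKM (log2 difference -0.89 ± 0.31, adjusted p = 0.0404). Both were without overlap, but each call was lost in several of the fits with a replicate left out. The call of comp24875_c0_seq2 was lost without replicate 1 (-1.04, adjusted p = 0.0517) or 3 (-0.96, adjusted p = 0.0665) of STR_06h or replicate 3 of CTR_06h (-0.94, adjusted p = 0.0658). That of comp19168_c0_seq1 was lost without replicate 1 (-0.96, adjusted p = 0.0638) or 2 (-0.68, adjusted p = 0.147) of STR_06h and without replicate 1 (-0.95, adjusted p = 0.054) or 2 (-0.69, adjusted p = 0.159) of CTR_06h.

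By family, none of 6 WRKY and none of 3 MADS-box transcripts was called at 6 h, with log2 differences of -0.13 to 1.06 and 0.05 to 0.26. Of 8 AP2/ERF transcripts 1 was higher and 2 were lower, and of 6 MYB transcripts 1 was lower. The 5 jumonji transcripts had differences of 0.31 to 0.85. When the median of every replicate was set equal, 13 transcripts were higher and 3 lower in place of 8 and 4. Without replicate 2 of CTR_06h the number higher was 5, and without replicate 1 of STR_06h the number lower was 2. Summed over 15 transcripts, markers of dividing cells were at 55.9 to 79.4 RPKM in CTR_06h and 29.2 to 35.3 RPKM in STR_06h. The sum of 3 xylem and lignin markers was 31.6 to 51.6 RPKM and 21.8 to 25.9 RPKM, and that of 2 petal and pigment markers 4.48 to 6.82 RPKM and 10.7 to 24.7 RPKM. The 2 petal and pigment markers are flavonoid glucosyltransferase-like transcripts with means of 13.1 and 1.82 RPKM. The xylem and lignin markers had means of 35.7, 13.3 and 1.20 RPKM, and the dividing-cell list holds several forms of the kinesin component comp22468_c0. These sums thus rest on few genes. The part of these lists in the differences was not tested.

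**Figure D1:**
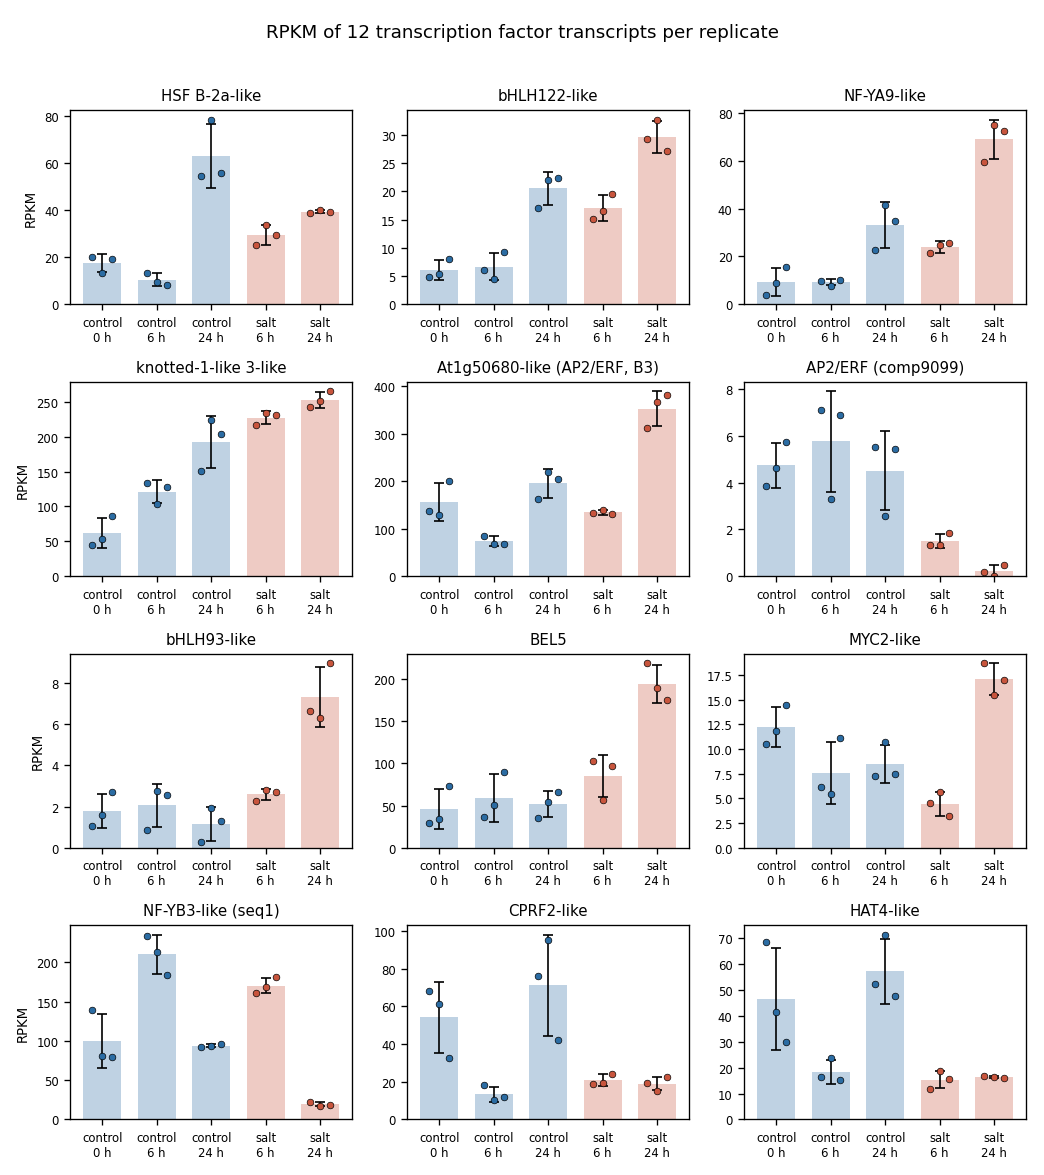
RPKM of 12 transcription factor transcripts in the 5 groups, with points for the 3 replicates, bars for the group mean from 0 and whiskers for the SD. In the first row salt-treated leaves at 6 h lie above control leaves at 6 h, while bHLH93-like and BEL5 transcripts in the third row are highest in salt-treated leaves at 24 h and the NF-YB3-like transcript in the last row is lowest there, at 17.4 to 22.3 RPKM.

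At 24 h of salt, 21 of 51 transcripts (41.2%) differed from control leaves at 24 h, against 46.5% of all transcripts tested. Of these 10 were higher and 11 lower, where 24.2% and 22.3% of all tested were higher and lower. The median difference was 0.12 for the 51 and 0.01 for all tested, and the replicates did not overlap for 29 of 51 (55.3% of all tested). Higher were factors described as bHLH93, BEL5, HSF A-4a, NF-YA9, MYC2, At1g50680, AGL31, FLOWERING LOCUS C and MYB, and the transcript described as 50S L21. Lower were both NF-YB3-like and both HAT-like transcripts, 3 AP2/ERF transcripts, a CPRF2-like bZIP, WRKY7, HSF B-2a and the undescribed partner of ERF13.

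A bHLH93-like transcript (comp8618_c0_seq1) showed the largest rise. It measured 0.275, 1.92 and 1.32 RPKM in CTR_24h and 6.63, 6.30 and 8.97 RPKM in STR_24h, a 6.24-fold higher mean (log2 difference 2.00 ± 0.34, n = 3 per group, adjusted p = 0.000302). A BEL5 transcript (comp26504_c0_seq5), a BEL1-like homeobox factor whose mobile mRNA promotes tuber formation in potato, measured 35.2, 54.2 and 65.8 RPKM in CTR_24h and 219, 189 and 175 RPKM in STR_24h (log2 difference 1.93 ± 0.37, adjusted p = 0.000809). These were well separated, the lowest BEL5 value in STR_24h being above the highest in any control group.

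The MYC2-like transcript (comp15580_c0_seq1), a bHLH factor at the core of jasmonate signalling, measured 7.30, 10.7 and 7.44 RPKM in CTR_24h and 18.7, 15.5 and 17.05 RPKM in STR_24h, a 2.02-fold higher mean (log2 difference 0.95 ± 0.27, adjusted p = 0.00995). A class A HSF, described as A-4a-like (comp24607_c0_seq3) and belonging to the activator class, measured 3.43, 3.85 and 3.64 RPKM in CTR_24h and 10.5, 8.47 and 9.32 RPKM in STR_24h (log2 difference 1.17 ± 0.28, adjusted p = 0.00328). Neither overlapped between the groups. The HSF A-4a replicates with salt at 24 h overlapped those of control leaves at 0 h, which were 14.3, 14.2 and 9.47 RPKM.

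The At1g50680-like transcript (comp21571_c0_seq1) reached the highest level of any of the 51, at 312, 366 and 381 RPKM in STR_24h against 162, 219 and 205 RPKM in CTR_24h (log2 difference 0.86 ± 0.21, adjusted p = 0.00349). The NF-YA9-like comp23870_c0_seq1 measured 22.6, 41.4 and 34.9 RPKM in CTR_24h and 59.5, 74.9 and 72.3 RPKM in STR_24h (log2 difference 1.08 ± 0.34, adjusted p = 0.0183). These were the only transcripts of the 51 called higher at both times. The NF-YA9-like call at 24 h was lost without replicate 2 (1.01, adjusted p = 0.0547) or 3 (1.04, adjusted p = 0.0509) of STR_24h or replicate 1 of CTR_24h (0.83, adjusted p = 0.0873).

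Smaller increases were found in 2 of the 3 MADS-box transcripts, in 1 MYB transcript and in comp15072_c0_seq1. The AGL31-like transcript (comp25070_c0_seq2), related to repressors of flowering in Arabidopsis, measured 2.89, 2.58 and 2.31 RPKM in CTR_24h and 5.86, 4.70 and 4.36 RPKM in STR_24h (log2 difference 0.73 ± 0.20, adjusted p = 0.00816), and with HPLC libraries alone the difference was 0.56 (adjusted p = 0.0914). The FLOWERING LOCUS C transcript comp25070_c0_seq1 was at the threshold (0.73 ± 0.29, adjusted p = 0.0469). Its call was lost in 5 of 6 fits with a replicate left out, all but that without replicate 3 of CTR_24h (differences of 0.52 to 0.94 over the 6, adjusted p of up to 0.184), and with equal medians, the replicate block (adjusted p = 0.0524), the compared groups alone or HPLC libraries alone (adjusted p = 0.171). The MYB transcript comp22997_c0_seq3 measured 1.18, 1.22 and 0.935 RPKM against 3.08, 1.98 and 2.47 RPKM with salt (log2 difference 0.72 ± 0.26, adjusted p = 0.0323). The other 3 MYB transcripts of its component were not called (differences of 0.45, 0.49 and 0.59), and its own call was lost without replicate 1 (0.61, adjusted p = 0.116) or 3 (0.73, adjusted p = 0.0703) of STR_24h and without replicate 1 (0.75, adjusted p = 0.0612), 2 (0.76, adjusted p = 0.0547) or 3 (0.66, adjusted p = 0.085) of CTR_24h. The transcript described as 50S L21, comp15072_c0_seq1, measured 4.18, 4.07 and 3.83 RPKM in CTR_24h and 7.29, 6.98 and 10.05 RPKM in STR_24h (log2 difference 0.84 ± 0.20, adjusted p = 0.00366), and with HPLC libraries alone the difference was 0.58 (adjusted p = 0.083).

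The largest decrease was in NF-Y subunit B-3, a histone-fold subunit that pairs with NF-YC before NF-YA joins. The transcript comp16091_c0_seq1 measured 91.9, 93.2 and 95.6 RPKM in CTR_24h and 22.3, 17.4 and 18.7 RPKM in STR_24h (log2 difference -2.22 ± 0.22, adjusted p = 3.22e-06). The mean with salt was 0.208 of that of the control. Its other form, comp16091_c0_seq2, fell from 55.0, 49.1 and 54.0 RPKM to 15.6, 14.01 and 14.8 RPKM (log2 difference -1.77 ± 0.20, adjusted p = 1.21e-05). At 24 h the NF-YA9-like call was thus upward, for 1 of its 2 forms, and both NF-YB3-like calls were downward.

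The AP2/ERF transcript comp9099_c0_seq1 measured 5.52, 2.56 and 5.45 RPKM in CTR_24h and 0.17, 0 and 0.475 RPKM in STR_24h, where replicate 2 was listed at 0 (log2 difference -2.15 ± 0.31, adjusted p = 7.02e-05). It was lower at both times. The same held for comp24875_c0_seq2, at 58.7, 48.6 and 59.7 RPKM in CTR_24h and 17.3, 24.4 and 12.5 RPKM in STR_24h (log2 difference -1.62 ± 0.32, adjusted p = 0.000936). The ERF012-like comp14581_c0_seq1 and the AP2/ERF comp16934_c0_seq1 were called lower with overlapping replicates (differences of -1.34 and -1.04, adjusted p = 0.0377 and 0.0347). The ERF012-like call was lost in 5 of 6 fits with a replicate left out, all but that without replicate 3 of CTR_24h (-2.03 to -0.86 over the 6, adjusted p of up to 0.185). That of comp16934_c0_seq1 was lost in 4 of 6, those without replicate 1 or 3 of STR_24h or replicate 1 or 2 of CTR_24h (-1.32 to -0.68, adjusted p of up to 0.175), and both were lost with HPLC libraries alone (adjusted p = 0.114 and 0.0792).

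Also lower were a bZIP factor and both HAT-like homeobox transcripts. The CPRF2-like bZIP transcript (comp26176_c0_seq6), named after a parsley factor that binds light-responsive promoters, measured 76.4, 95.3 and 42.3 RPKM in CTR_24h and 19.6, 15.3 and 22.3 RPKM in STR_24h (log2 difference -1.79 ± 0.33, adjusted p = 0.000516). The HAT4-like homeobox-leucine zipper transcript (comp26497_c0_seq1), known in Arabidopsis from shade avoidance, measured 52.3, 71.4 and 47.8 RPKM against 16.9, 16.3 and 16 RPKM with salt (log2 difference -1.72 ± 0.28, adjusted p = 0.00024), and the HAT2-like form of its component, comp26497_c0_seq2, fell too (-1.41 ± 0.27, adjusted p = 0.000787). Neither CPRF2 nor HAT4 overlapped between the groups. The summed RPKM of the 5 photosynthesis transcripts, in the main that of a chlorophyll a-b binding protein, was 3527 to 4902 in CTR_24h and 1190 to 1282 in STR_24h. That of 3 xylem and lignin transcripts was 72.1 to 90.7 and 43.0 to 57.2. Their part in these differences was not tested.

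A WRKY7 transcript (comp21369_c0_seq2) measured 6.91, 5.25 and 4.15 RPKM in CTR_24h and 2.50, 3.10 and 2.65 RPKM in STR_24h (log2 difference -0.76 ± 0.23, adjusted p = 0.0125), the only call among 6 WRKY transcripts, and without replicate 1 of CTR_24h it was lost (-0.60, adjusted p = 0.0625). All 6 WRKY differences at 24 h were below 0, from -1.37 to -0.13. HSF B-2a (comp11409_c0_seq1) measured 54.7, 78.6 and 55.9 RPKM in CTR_24h and 38.9, 40.3 and 39.2 RPKM in STR_24h (log2 difference -0.64 ± 0.23, adjusted p = 0.0343). The groups did not overlap, but the call was lost without replicate 1 (-0.63, adjusted p = 0.0801), 2 (-0.66, adjusted p = 0.0673) or 3 (-0.64, adjusted p = 0.0746) of STR_24h or replicate 2 of CTR_24h (-0.48, adjusted p = 0.143). With libraries of HPLC-purified primers alone, 7 transcripts were lower at 24 h in place of 11.

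**Figure D2:**
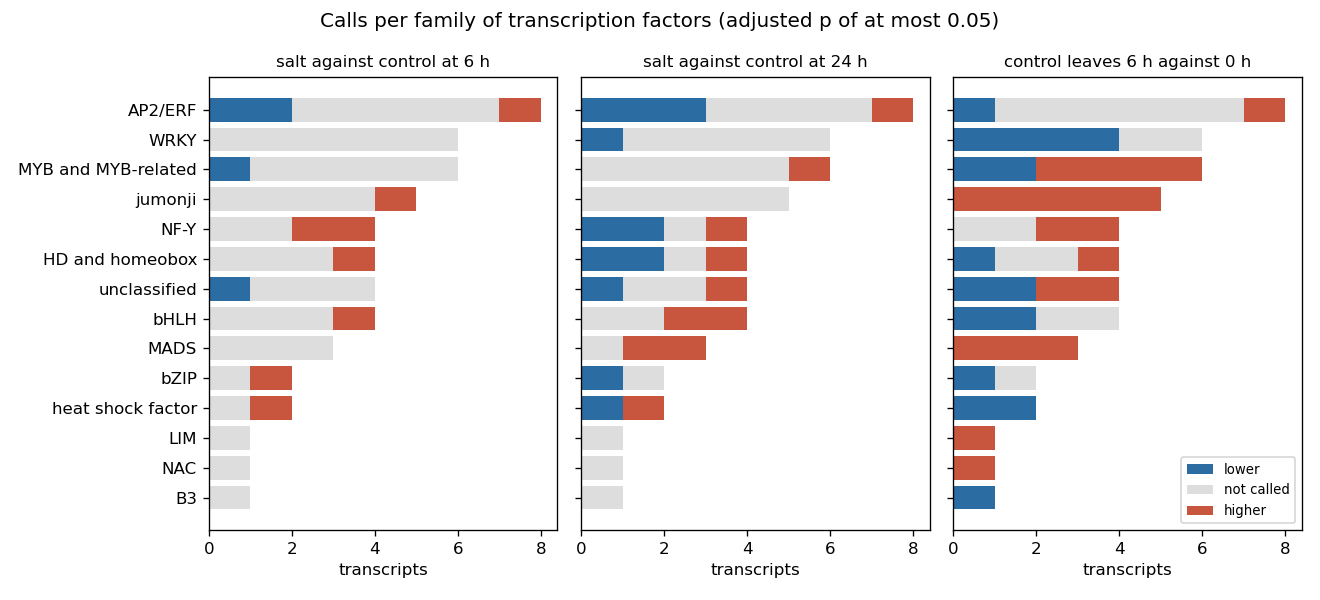
Number of transcripts per family that were lower (blue), not called (grey) or higher (red) at an adjusted p of at most 0.05, in salt against control at 6 h, at 24 h and in control leaves at 6 h against 0 h. The 6 WRKY transcripts have no call with salt at 6 h and 4 lower calls from 0 to 6 h in control leaves. In those control leaves all 5 jumonji and all 3 MADS-box transcripts are higher. WRKY transcripts of the components left out are not drawn.

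Whether the salt effect changed between 6 and 24 h was tested as the difference of the salt differences, which compares separate libraries at each time. It was called for 13 of 51 transcripts (25.5%, against 32.3% of all tested), 6 higher and 7 lower at 24 h than at 6 h. The median was -0.38 for the 51 and 0.06 for all tested. With HPLC libraries alone the number higher was 3 in place of 6. The smallest adjusted p-values were those of both NF-YB3-like transcripts, HSF B-2a and CPRF2 on the lower side and of MYC2 and HSF A-4a on the higher side. With HPLC libraries alone the calls of comp15072_c0_seq1, DIVARICATA, bHLH93 and the WRKY transcript comp26279_c1_seq1 were lost.

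HSF B-2a (comp11409_c0_seq1) went from a salt difference of 1.43 at 6 h to -0.64 at 24 h (change of -2.07 ± 0.33, adjusted p = 0.000574). Its level with salt was 25.1 to 33.7 RPKM at 6 h and 38.9 to 40.3 RPKM at 24 h, while control leaves went from 8.15 to 13.5 RPKM at 6 h to 54.7 to 78.6 RPKM at 24 h. The rise in control leaves was called (log2 difference 2.49 ± 0.23, adjusted p = 3.44e-07) and that in salt-treated leaves was not (0.42 ± 0.23, adjusted p = 0.131). HSF A-4a (comp24607_c0_seq3) had the opposite sign, from -0.31 at 6 h to 1.17 at 24 h (change of 1.48 ± 0.39, adjusted p = 0.012), although at 6 h its control and salt replicates overlapped.

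For CPRF2 (comp26176_c0_seq6) the salt difference was 0.64 at 6 h and -1.79 at 24 h (change of -2.43 ± 0.46, adjusted p = 0.00173). Control leaves went from 10.1 to 18.02 RPKM at 6 h to 42.3 to 95.3 RPKM at 24 h, and salt-treated leaves were at 18.8 to 24.4 RPKM and 15.3 to 22.3 RPKM. A like pattern held for HAT4 (comp26497_c0_seq1), with -0.24 at 6 h and -1.72 at 24 h (change of -1.48 ± 0.40, adjusted p = 0.0136). In both, control leaves differed between 6 and 24 h (log2 differences 2.3 and 1.59, adjusted p = 2.19e-05 and 0.000198) and for salt-treated leaves no difference was called (-0.13 and 0.11, adjusted p = 0.748 and 0.742).

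The NF-YB3-like comp16091_c0_seq1 had a salt difference of -0.30 at 6 h (adjusted p = 0.283) and -2.22 at 24 h (change of -1.92 ± 0.30, adjusted p = 0.000567). MYC2 (comp15580_c0_seq1) went from -0.62 at 6 h, when 4.49, 5.63 and 3.19 RPKM with salt overlapped 6.12, 5.46 and 11.1 RPKM in controls, to 0.95 at 24 h (change of 1.57 ± 0.38, adjusted p = 0.00732). DIVARICATA (comp15654_c1_seq1) went from -1.69 to -0.10 (change of 1.58 ± 0.44, adjusted p = 0.0141), its levels at 24 h being 6.73, 8.43 and 4.53 RPKM in controls and 7.11, 5.93 and 4.77 RPKM with salt. The decrease of DIVARICATA was thus called at 6 h and not at 24 h, with a called difference between the times.

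The bHLH93-like comp8618_c0_seq1 had salt differences of 0.30 and 2.00 (change of 1.7 ± 0.48, adjusted p = 0.016). Low transcripts gave wider errors. APETALA2 (comp6946_c0_seq1), a floral organ identity factor, was at 0.54 to 4.19 RPKM in these 4 groups (change of 1.32 ± 0.42, adjusted p = 0.0295), and ERF012 (comp14581_c0_seq1) at 0 to 5.14 RPKM, with 1 control replicate at 6 h listed at 0 (change of -2.48 ± 0.70, adjusted p = 0.0159). The call of APETALA2 was lost without replicate 1 of STR_24h (adjusted p = 0.072), 1 or 3 of CTR_24h (0.0557 and 0.0509), 1 or 3 of STR_06h (0.0606 and 0.0513) or 3 of CTR_06h (0.0741), with changes of 1.11 to 1.3.

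The WRKY transcript comp26279_c1_seq1 had a salt difference of 0.88 at 6 h and -1.37 at 24 h, neither called by itself (adjusted p = 0.223 and 0.0564), and a change of -2.25 ± 0.79 (adjusted p = 0.0415). Its replicates spread widely, with 14.9, 3.06 and 9.28 RPKM in STR_06h and 12.9, 8.23 and 1.7 RPKM in CTR_24h. The call was lost in 9 of 12 fits with a replicate left out, which were those without replicate 1, 2 or 3 of STR_24h, 1 or 2 of CTR_24h, 1 or 3 of STR_06h or 1 or 2 of CTR_06h, with changes of -2.93 to -1.75 over all 12 fits and an adjusted p of up to 0.103. With the replicate number as a block within treatment it was lost too (adjusted p = 0.063). The comp26279_c1_seq2 form, described as WRKY70-like, was not called (-1.55 ± 0.84, adjusted p = 0.169).

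**Figure D3:**
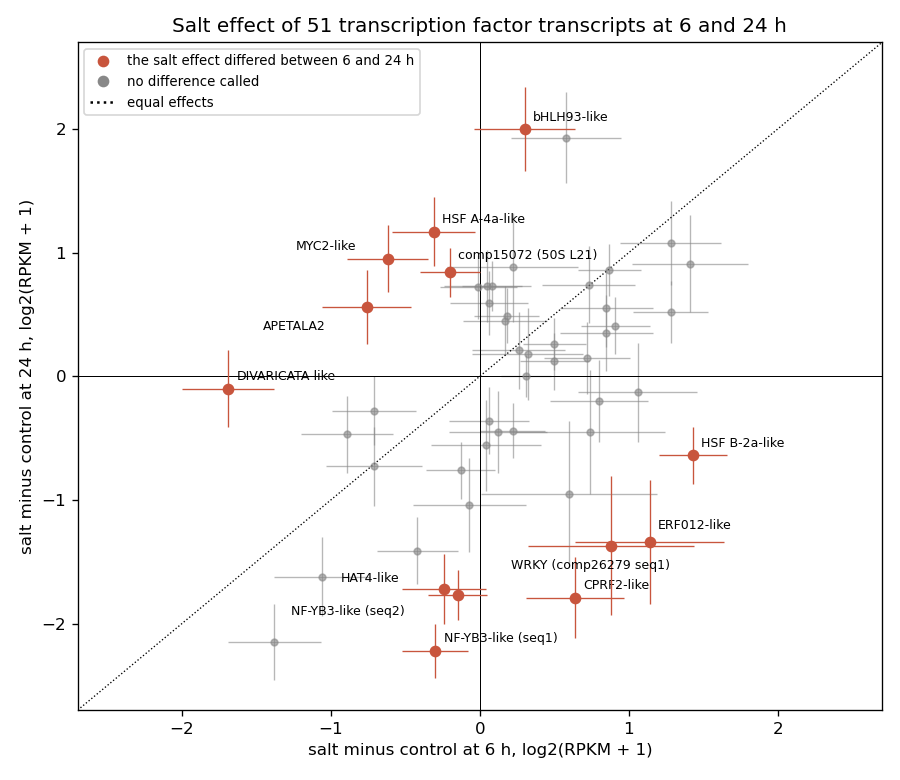
Salt minus control on the log2(RPKM + 1) scale at 6 h (horizontal axis) and 24 h (vertical axis) for 51 transcription factor transcripts, with whiskers of 1 SE and a dotted line of equal effects. The 13 transcripts in red had a called change of the salt effect, and HSF B-2a lies at 1.43 and -0.64 while bHLH93-like lies at 0.30 and 2.00.

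From 0 to 6 h in control leaves 36 of 51 (70.6%) were called, against 57.1% of all tested, 20 higher (29% of all tested) and 16 lower (28.1%). The 20 come from 10 components, 12 of the 20 being jumonji, MADS-box and MYB transcripts of 3 components. The median difference was 0.14 for the 51 and -0.08 for all tested. The number lower was 10 when only these groups were fitted. With the replicate number as a block within treatment, the calls of MYC2 (comp15580_c0_seq1) and the MYB transcript comp16470_c0_seq1 from 0 to 6 h were lost (adjusted p = 0.0517 and 0.061, from 0.0426 and 0.0473). The 6 h control libraries also served in the salt comparison at 6 h.

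All 5 jumonji transcripts of component comp26257_c1, a domain of histone demethylases, were higher at 6 h (log2 differences 1.5 to 2.63). The transcript comp26257_c1_seq4 was listed at 0 in every replicate of CTR_00h and CTR_24h and measured 4.37, 6.27 and 5.07 RPKM in CTR_06h (log2 difference 2.63 ± 0.21, adjusted p = 1e-07). With salt it measured 9.27, 8.50 and 5.90 RPKM at 6 h and 0, 0.46 and 0.185 RPKM at 24 h. It was thus detected in all 6 replicates sampled at 6 h, treated or not.

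The 3 MADS-box transcripts behaved alike. AGL31 (comp25070_c0_seq2) measured 4.28, 3.01 and 3.87 RPKM in CTR_00h, 18.8, 20.5 and 17.98 RPKM in CTR_06h and 2.89, 2.58 and 2.31 RPKM in CTR_24h (6 h against 0 h, 5.13-fold, log2 difference 2.10 ± 0.20, adjusted p = 5.64e-07). The FLOWERING LOCUS C transcripts comp25070_c0_seq1 and comp25070_c0_seq5 rose by log2 differences of 2.41 ± 0.29 (adjusted p = 5.02e-06) and 1.97 ± 0.31 (adjusted p = 7.24e-05). At 6 h, salt-treated and control leaves overlapped for all 3.

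The 4 MYB transcripts of comp22997_c0 were also highest at 6 h. The transcript comp22997_c0_seq2 measured 1.22, 1.74 and 2.06 RPKM in CTR_00h, 5.97, 7.75 and 8.14 RPKM in CTR_06h and 1.64, 1.79 and 1.46 RPKM in CTR_24h (6 h against 0 h, 4.37-fold, log2 difference 1.64 ± 0.22, adjusted p = 1.97e-05). The other 3 had differences of 1.45 to 1.81, all called. The NF-YB3-like transcripts rose over the same hours, comp16091_c0_seq2 from 81.3, 54.6 and 46.0 RPKM to 145, 129 and 127 RPKM (log2 difference 1.17 ± 0.20, adjusted p = 0.000189). The transcript described as 50S L21, comp15072_c0_seq1, rose from 6.58, 6.49 and 5.44 RPKM to 14.9, 17.2 and 13.9 RPKM (log2 difference 1.19 ± 0.20, adjusted p = 0.000174).

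Lower at 6 h than at 0 h in control leaves were 4 of 6 WRKY transcripts and both HSFs. The WRKY transcript comp26279_c1_seq1 measured 25.5, 27.5 and 21.5 RPKM in CTR_00h and 3.08, 2.06 and 7.58 RPKM in CTR_06h (log2 difference -2.44 ± 0.56, adjusted p = 0.00175). WRKY22 (comp21564_c0_seq3), which in Arabidopsis acts downstream of a defence MAP kinase cascade, fell from 7.90, 5.58 and 7.03 RPKM to 2.48, 0.93 and 2.56 RPKM (log2 difference -1.43 ± 0.27, adjusted p = 0.000345). The HSF differences were -0.70 for B-2a and -0.92 for A-4a (adjusted p = 0.0178 and 0.0106). The replicates of comp11409_c0_seq1 (B-2a) overlapped, and its call was lost without replicate 2 or 3 of CTR_06h or replicate 1 or 3 of CTR_00h (-0.89 to -0.56 over the 6 fits, adjusted p of up to 0.0779) and with HPLC libraries alone (adjusted p = 0.115). That of comp24607_c0_seq3 (A-4a) was lost without replicate 1 of CTR_06h (adjusted p = 0.0573), and both were lost when only these groups were fitted.

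The PIF1-like transcript (comp20642_c1_seq1), a phytochrome-interacting bHLH factor that restrains chlorophyll synthesis and seed germination in the dark in Arabidopsis, measured 3.18, 4.59 and 4.28 RPKM in CTR_00h and 0.30, 0 and 0.925 RPKM in CTR_06h, with replicate 2 listed at 0 (log2 difference -1.87 ± 0.33, adjusted p = 0.000196). At 24 h it was back at 5.98, 6.32 and 4.42 RPKM. The CPRF2-like comp26176_c0_seq6 fell from 68.5, 61.5 and 32.8 RPKM to 18.02, 10.1 and 11.7 RPKM (log2 difference -1.92 ± 0.33, adjusted p = 0.000158), and DIVARICATA (comp15654_c1_seq1) from 19.03, 17.2 and 15.1 RPKM to 2.91, 4.78 and 7.37 RPKM (log2 difference -1.65 ± 0.31, adjusted p = 0.000354). None of these 3 overlapped between 0 and 6 h.

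**Figure D4:**
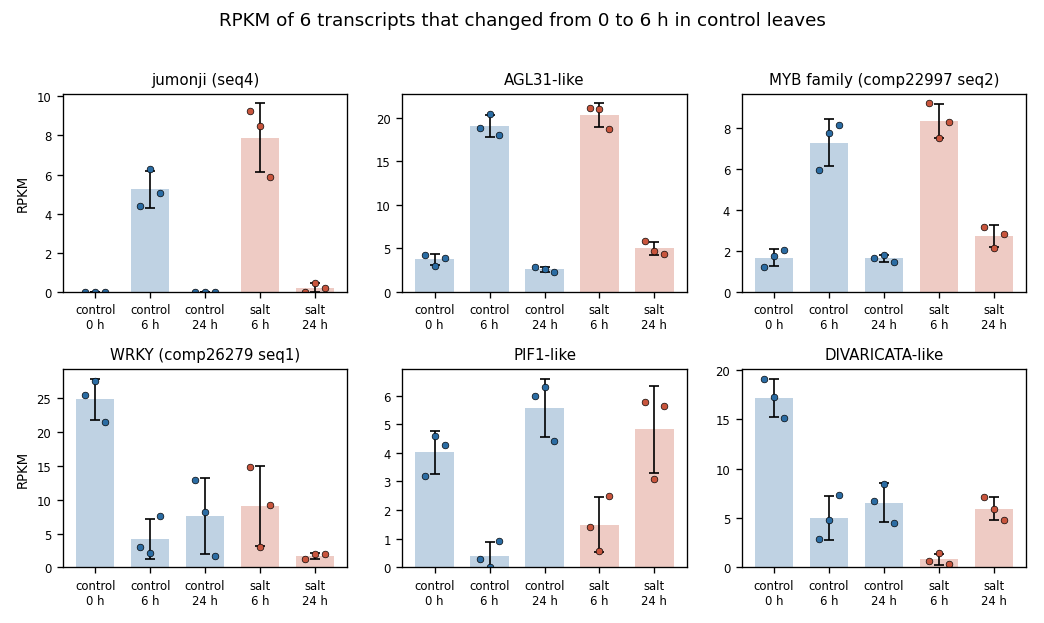
RPKM of 6 transcripts in the 5 groups, with points for the 3 replicates, bars for the mean and whiskers for the SD. The jumonji, AGL31-like and MYB transcripts in the upper row are high in both groups sampled at 6 h, with AGL31-like at 17.98 to 20.5 RPKM in controls, and the PIF1-like transcript is low at 6 h with or without salt.

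Between 0 and 24 h, the same hour on successive days, 14 of 51 transcripts (27.5%) differed in control leaves, against 38.3% of all tested, 9 higher (16.2% of all tested) and 5 lower (22.1%). The medians of the replicates were on average 0.20 lower on the log2 scale in CTR_24h than in CTR_00h, and setting them equal changed none of the calls named for this comparison. The CTR_24h libraries also served in the salt comparison at 24 h. Higher were HSF B-2a, both NF-YA9-like transcripts, both transcripts of comp24875_c0, knotted-1-like 3, bHLH122, the B3 factor NGA3 and G-box-binding factor 4. The call of G-box-binding factor 4 (comp24615_c0_seq2, 0.87, adjusted p = 0.0365) was lost with the block within treatment (adjusted p = 0.0513) and without replicate 2 or 3 of CTR_24h or 1 or 2 of CTR_00h (adjusted p of up to 0.159), and that of NGA3 (comp15241_c0_seq2, 0.8, adjusted p = 0.0129) without replicate 1 of CTR_00h (adjusted p = 0.0646). Marker sums also differed without overlap between these groups, photosynthesis at 1899 to 2653 and 3527 to 4902 RPKM, dividing cells at 58.5 to 66.9 and 21.9 to 30.8 RPKM, xylem and lignin at 37.3 to 70.9 and 72.1 to 90.7 RPKM, and petal and pigment at 5.74 to 10.1 and 14.1 to 24.4 RPKM in CTR_00h and CTR_24h. Their part in the differences was not tested.

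HSF B-2a (comp11409_c0_seq1) measured 20.2, 13.2 and 19.4 RPKM in CTR_00h against 54.7, 78.6 and 55.9 RPKM in CTR_24h (3.58-fold, log2 difference 1.79 ± 0.23, adjusted p = 0.000184). The comp24875_c0_seq2 transcript measured 15.1, 7.85 and 22.5 RPKM in CTR_00h and was 3.68-fold higher in CTR_24h (log2 difference 1.92 ± 0.32, adjusted p = 0.000598). Differences for comp23870_c0_seq1, comp16115_c0_seq1 and comp24399_c1_seq3 were 1.83 ± 0.34, 1.66 ± 0.23 and 1.63 ± 0.25, all without overlap. Knotted-1-like 3 was at 44.9, 53.9 and 86.1 RPKM in CTR_00h and at 151, 224 and 203 RPKM in CTR_24h, and its salt difference at 24 h of 0.41 was not called (adjusted p = 0.156).

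Lower in CTR_24h than in CTR_00h were both WRKY transcripts of comp26279_c1, HSF A-4a, DIVARICATA and the MYB transcript comp16470_c0_seq1. HSF A-4a (comp24607_c0_seq3) differed by -1.53 ± 0.28 (adjusted p = 0.000863), DIVARICATA (comp15654_c1_seq1) by -1.29 ± 0.31 (adjusted p = 0.00488), and comp16470_c0_seq1, at 10.1, 8.55 and 9.49 RPKM against 2.77, 4.82 and 4.81 RPKM, by -1.04 ± 0.28 (adjusted p = 0.0086). The WRKY transcript comp26279_c1_seq1 differed by -1.87 ± 0.56 (adjusted p = 0.0162), and without replicate 3 of CTR_24h by -1.18 (adjusted p = 0.0771). The other form, comp26279_c1_seq2 (-1.89), was lost without the same replicate or replicate 2 of CTR_00h (adjusted p of up to 0.102). Without replicate 3 of CTR_24h the number lower was 3 in place of 5, and it was also 3 when only these groups were fitted.

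From 6 to 24 h, 36 of 51 transcripts differed in control leaves (61.6% of all tested), 17 higher (27.4% of all tested) and 19 lower (34.2%), and 37 of 51 in salt-treated leaves (60.3% of all tested), 14 higher (28.3%) and 23 lower (32.1%). The 19 lower in controls come from 9 components and the 23 lower with salt from 12, while the 17 and 14 higher come from 14 and 13. NF-YB3 (comp16091_c0_seq1) was 2.25-fold lower at 24 h in controls (210 to 93.6 RPKM, log2 difference -1.15 ± 0.22, adjusted p = 0.000287) and 8.74-fold lower with salt (170 to 19.5 RPKM, -3.07 ± 0.22, adjusted p = 2.26e-08). AGL31 (comp25070_c0_seq2) was 7.37-fold lower in controls and 4.08-fold lower with salt (adjusted p = 7.73e-08 and 1.95e-06). DIVARICATA (comp15654_c1_seq1) was 7.15-fold higher at 24 h with salt (adjusted p = 7.62e-05), and in controls its change was not called (adjusted p = 0.317).

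Forms of a component were compared as the share of a transcript in the summed RPKM of its component, in 13 components with at least 2 transcripts in the table. Shares are a description, since forms share reads and RSEM divides them. The NF-YA9-like forms were near equal in every group, comp23870_c0_seq1 taking 47.3% to 53.3%. The HAT2-like form comp26497_c0_seq2 took 13.6% to 18.7%, so that HAT4-like and HAT2-like levels moved together while the component fell from 66.1 RPKM in CTR_24h to 19.1 RPKM in STR_24h.

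In the ERF13 component the ERF13-like comp24875_c0_seq1 took 21.8% ± 4.9 (SD, n = 3) in CTR_06h and 38.6% ± 10.5 in STR_06h, and 23.7% ± 7.6 in CTR_24h and 39.1% ± 9.4 in STR_24h. The replicates at 6 h were 17.4%, 27.1% and 21% against 26.8%, 42.2% and 46.8%, which overlap. Its own level did not pass the test with salt at 6 h (log2 difference 0.04 ± 0.37, adjusted p = 0.934) or 24 h (-0.56 ± 0.37, adjusted p = 0.229), while the undescribed form was lower at both times. In comp21974_c0 the form described as a transcription regulator, comp21974_c0_seq1, took 90.1% ± 9.0 in CTR_00h, 39.1% ± 4.8 in CTR_24h and 21.5% ± 4.6 in STR_24h, the rest being a form outside the 51. The 24 h replicates did not overlap, with 36.0% to 44.6% in controls and 17.3% to 26.4% with salt. The sum of this component was low, with group means from 2.97 RPKM in CTR_06h to 9.005 RPKM in STR_24h. In CTR_06h the replicate shares spread from 51.9% to 100%.

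**Figure D5:**
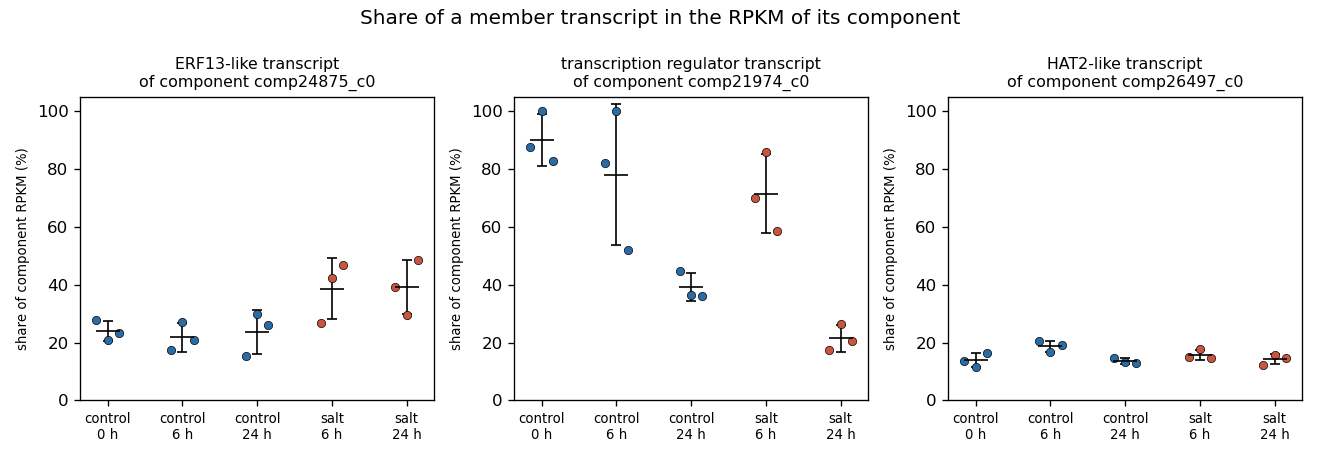
Share of 1 transcript in the summed RPKM of its component (percent, vertical axis from 0) in the 5 groups for the ERF13-like, transcription regulator and HAT2-like transcripts, with points for the 3 replicates, a dash for the mean and whiskers for the SD. The transcription regulator form is at 90.1% in control leaves at 0 h, 39.1% in control leaves at 24 h and 21.5% in salt-treated leaves at 24 h. The HAT2-like form has group means between 13.6% and 18.7%.

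Transcripts not called in any salt comparison include WIN1 (comp24318_c0_seq1), an AP2/ERF regulator of cuticular wax, which measured 2.29, 6.09 and 6.73 RPKM in CTR_24h and 7.36, 11.3 and 10.02 RPKM in STR_24h (log2 difference 0.88, 95% interval -0.04 to 1.81, adjusted p = 0.108). NGA3 (comp15241_c0_seq2), a B3 factor of leaf margin growth in Arabidopsis, had 0.12 at 24 h (-0.36 to 0.61). The NAC68-like comp24829_c0_seq2 had a mean of 1.01 RPKM and LIM1 (comp26378_c0_seq10), named after a tobacco factor of phenylpropanoid genes, 2.72 RPKM. LIM1 had -0.71 at 6 h (-1.38 to -0.03) and -0.73 at 24 h (-1.41 to -0.06) with adjusted p = 0.0927 and 0.0686. This form took only 2.2% to 3.2% of its component, which has 9 transcripts in the table. The component sum averaged 183 RPKM in CTR_06h and 131 RPKM in STR_06h, and 48.2 RPKM in CTR_24h and 22.2 RPKM in STR_24h. This form is thus a small part of the component. Group means of the form and of the component sum were both lower with salt at 6 and 24 h, and the sum is given without a test. Both WRKY transcripts of comp23620_c0 had a single high replicate in STR_06h, at 7.33 and 7.52 RPKM, against 0.51 to 3.69 RPKM in its other replicates.

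Lists of genes around transcription were counted beside the 51, to be read against the shares of all tested transcripts, 17.3% higher and 17.2% lower at 6 h and 24.2% and 22.3% at 24 h. Of 8 transcripts for chromatin and co-regulators, 1 was higher and 2 lower at 6 h of salt, and 4 were higher and none lower at 24 h. One of the 8, comp26257_c1_seq7, shares its component with the jumonji transcripts. A TOPLESS-related 3 transcript (comp24975_c0_seq2), a corepressor recruited by hormone-regulated repressors, was higher at both times (log2 differences 0.89 ± 0.28 and 1.72 ± 0.28, adjusted p = 0.0241 and 0.00022), and a SUVH4-like H3 lysine-9 methyltransferase (comp10040_c0_seq1) was lower at 6 h (-0.83 ± 0.21, adjusted p = 0.00765). Of 9 transcripts for RNA polymerase and general transcription, 3 were lower at 6 h and 3 were higher at 24 h, and the chloroplastic polymerase transcripts of comp15582_c0 were in both sets (-0.77 and -0.60 at 6 h, 0.94 and 1.00 at 24 h).

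Of 46 tested transcripts for hormone signalling, 17 were higher and 8 lower at 6 h, and 11 higher and 9 lower at 24 h, with medians of 0.04 and -0.24. Over all tested transcripts the shares were 17.3% higher and 17.2% lower at 6 h and 24.2% and 22.3% at 24 h, so the 24 h counts were near the background. The 17 higher at 6 h include several forms each of comp25573_c0, comp21321_c1, comp25039_c1 and comp23485_c0, and the 8 lower include forms of comp22720_c0. These are not independent, so the 6 h counts are not numbers of separate genes. The PP2C8-like transcripts of comp21321_c1 were higher at both times (1.97 to 2.62 at 6 h and 2.73 to 2.89 at 24 h). They belong to a large phosphatase family of which only some members restrain abscisic acid signalling, and the descriptions do not tell which. Other PP2C transcripts were called in both directions at 6 h. Higher were PP2C63-like forms of comp25573_c0 (seq2, seq3, seq13, seq16 and seq18, 0.91 to 1.7). Lower were 3 PP2C5-like forms of comp22720_c0 (-1 to -0.71) and a PP2C33-like transcript (comp20640_c0_seq1, -0.76). At 24 h comp22720_c0_seq1 (-0.63), the PP2C63-like comp25573_c0_seq6 (-1.04) and a PP2C47-like transcript (comp17853_c0_seq1, -0.95) were lower. A kinase of the SRK2E type (comp14103_c0_seq1), which phosphorylates bZIP factors of abscisic acid responses in Arabidopsis, was higher at 6 h (1.38 ± 0.20, adjusted p = 0.000217). Its difference at 24 h was -0.34 (adjusted p = 0.17). The 17 transcription factor transcripts of the components left out had 3 higher and 1 lower at 6 h and 5 higher and 1 lower at 24 h. The 3 higher at 6 h were all WRKY transcripts. They were WRKY23-like comp23500_c1_seq2 (1.52, adjusted p = 0.00429) and WRKY53-like comp15947_c0_seq1 and comp15947_c0_seq2 (1.57 and 1.68, adjusted p = 0.0244 and 0.0452). At 24 h none of these WRKY transcripts was called (0.58, -0.99 and -1).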

How the data were processed

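Leaf RNA was analysed in 15 biological replicates. From polyadenylated RNA the authors prepared stranded libraries, with index primers purified by HPLC or not, sequenced them on an Illumina HiSeq instrument, trimmed and filtered reads with Ea-Utils, assembled them with Trinity, mapped with Bowtie, estimated expression with RSEM and annotated transcripts with Blast2GO. The deposited table holds RPKM per library, which are not counts. How its 4767 transcripts were chosen and whether TMM scaling was applied is not given in the sources used here, so shares of called transcripts apply to this table only. The deposited annotation is text and covers 1434 of the 4767, and by its text the members, families and lists were matched.

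Groups came from labels and column names. Of 29 columns 28 were used (6, 5 and 6 for control leaves at 0, 6 and 24 h, 6 and 5 for salt at 6 and 24 h). For salt at 24 h, the labels list 1 library fewer than the columns, and 1 column was not used. For control leaves at 6 h they list 6 libraries where the table has 5 columns. The paper reports that a control library at 6 h failed, and it lists reads for every salt library at 24 h. In the columns used, replicate 2 of CTR_06h and replicate 2 of STR_24h each had only the library with an HPLC-purified primer. The values listed at 0 for PIF1-like and ERF012-like in CTR_06h and for comp9099_c0_seq1 in STR_24h are of these replicates. The 3 labelled samples of salt at 0 h were not analysed here. Libraries of a replicate were averaged, and p-values measure the spread between pools of plants, with the times of a treatment fitted as independent. Values were log2(RPKM + 1), and 4658 transcripts with at least 1 RPKM in at least 3 replicates were fitted over all 5 groups in limma 3.58.1 (R 4.3.3, trend), with Benjamini-Hochberg adjustment. Python 3.11.15, pandas 2.3.3, numpy 2.4.6 and matplotlib 3.10.9 were used, and the fit was tested on simulated data.

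The members and lists (chromatin and co-regulators, RNA polymerase and general transcription, hormone signalling, the transcription factors left out, and cell markers) were chosen with earlier results of these data known. Named were, 1 per component, up to 10 higher and 10 lower transcripts without overlap per salt comparison, up to 5 each way for the change of the salt effect and for control 6 h and 24 h against 0 h, and the most abundant of each family with at least 3 members. Other names, including those of the lists, were chosen after their values were seen. Alternatives were a pseudocount of 0.1, no filter, the replicate number as a block, the compared groups only, HPLC libraries only, equal medians, component sums, leaving out each replicate and, added after seeing the data, the replicate number as a block within treatment. Sequences of the transcripts were not used here.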

Additional observations from a re-analysis of the deposited data

Results flagged for a closer look

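The salt effect differed between 6 and 24 h by the test of the difference itself (limma, adjusted p of at most 0.05) for 13 transcripts. It was lower at 24 h for ERF012-like comp14581_c0_seq1 (-2.48 on the log2 scale), CPRF2-like comp26176_c0_seq6 (-2.43), WRKY comp26279_c1_seq1 (-2.25), HSF B-2a-like comp11409_c0_seq1 (-2.07), NF-YB3-like comp16091_c0_seq1 (-1.92) and comp16091_c0_seq2 (-1.62), and HAT4-like comp26497_c0_seq1 (-1.48). It was higher at 24 h for comp15072_c0_seq1, described as 50S L21 (1.04), APETALA2 comp6946_c0_seq1 (1.32), HSF A-4a-like comp24607_c0_seq3 (1.48), MYC2-like comp15580_c0_seq1 (1.57), DIVARICATA-like comp15654_c1_seq1 (1.58) and bHLH93-like comp8618_c0_seq1 (1.7). With HPLC libraries alone, the calls of bHLH93-like (adjusted p = 0.0696), DIVARICATA-like (adjusted p = 0.0783), comp15072_c0_seq1 (adjusted p = 0.19) and the WRKY transcript (adjusted p = 0.269) were lost. Groups of 3 replicates are too small for a test of single outlying samples.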

How the results depend on the processing

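Of 205 counts of called transcripts under the alternatives, 197 were within 1.5 times the reported count, and 8 were not. With equal medians 13 transcripts were higher at 6 h of salt. With HPLC libraries alone 7 were lower at 24 h and 3 had a higher salt effect at 24 h than at 6 h. In fits of the compared groups alone 10 were lower from 0 to 6 h and 3 from 0 to 24 h in control leaves. Leaving out 1 replicate gave 5 to 11 higher and 2 to 4 lower at 6 h of salt, 7 to 10 and 8 to 13 at 24 h, 5 to 7 and 6 to 10 for the change of the salt effect, 18 to 20 and 12 to 15 for control leaves at 6 h against 0 h, 7 to 10 and 3 to 7 at 24 h against 0 h, 13 to 17 and 19 to 21 at 24 h against 6 h, and 11 to 14 and 20 to 24 for salt-treated leaves at 24 h against 6 h. Of 55 named results none changed direction, 41 stayed called under every alternative, and 14 were lost under at least 1, of which 12 with HPLC libraries alone, 10 without 1 replicate, 4 each with a pseudocount of 0.1 and with the compared groups only, 2 with component sums and 1 with equal medians. The cause was not tested.

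With the replicate number as a block, counts with salt were 8 higher and 4 lower at 6 h and 10 and 11 at 24 h, the same numbers as without it, although 7 of 8 and 9 of 10 higher calls were shared, and the change of the salt effect was higher for 7 in place of 6. The block lost the calls of comp24615_c0_seq2 at 6 h (0.85, adjusted p = 0.0537) and comp25070_c0_seq1 at 24 h (0.73, adjusted p = 0.0524), and from 0 to 6 h in control leaves those of comp24875_c0_seq2, comp16470_c0_seq1 and comp15580_c0_seq1 (adjusted p = 0.0552, 0.0518 and 0.0562). Deviations of same-numbered replicates correlated from -0.26 to 0.288, with 6 of 30 pairs over 0.1, and 5 of 15 replicates correlated best with their own number, and within a treatment 5 of 12 pairs were over 0.1 (-0.204 to 0.288). Control and salt-treated pools were different plants, so a number pairs nothing across treatments. Within a treatment the pools were sampled repeatedly, but whether a number marks the same pool at each time is not given in the sources used here. A block within treatment, chosen after seeing the data, gave 7 higher and 6 lower for the change of the salt effect, 20 higher and 15 lower at 6 h and 8 and 5 at 24 h against 0 h in control leaves, and ended the calls of comp26279_c1_seq1 for the change of the salt effect, comp15580_c0_seq1 and comp16470_c0_seq1 at 6 h and comp24615_c0_seq2 at 24 h against 0 h. Depth cannot be read from RPKM. The paper lists raw reads per library, and in each pair of libraries the HPLC-purified primer gave fewer. Fits with HPLC libraries alone thus used the library with fewer reads wherever a replicate had both. The part of depth in the calls lost was not tested. Reads per transcript are not given, so no limit from counting error can be given for the 24 transcripts with means under 5 RPKM.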
